A study of Mus musculus with 6 samples.

Results

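The genes described here encode proteins that make ribosomes, namely subunits and factors of RNA polymerase I (Pol I) and proteins that modify, cut and fold ribosomal RNA or assemble it into ribosomal subunits. They were chosen as the rows of the deposited gene tables whose symbol equals 1 of 48 listed symbols. All 48 were found among the 25330 genes of the tables, and all 48 passed the filter on low counts. The dataset was made from AML12 cells, an established mouse hepatocyte line from an animal transgenic for human TGF alpha, and held 6 stranded mRNA libraries. There were 3 control libraries from cells kept at 21% oxygen. The other 3, labelled H6R2 and here called H/R, were from cells kept for 6 h at 1% oxygen in medium lacking serum and glucose and then returned to normal oxygen for 2 h. The genotype is labelled WT in both groups, and the routine medium held fetal bovine serum, an insulin, transferrin and selenium supplement and dexamethasone. The effects of oxygen and of the medium cannot be told apart in this design, and all cells are of 1 line. The labels number the replicates without saying whether they were separate cultures, so that the p-values measure the spread between these libraries.

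Ribosome production begins in the nucleolus, where Pol I transcribes the long precursor of most ribosomal RNAs. Box C/D and box H/ACA ribonucleoproteins, each built on a small nucleolar RNA (snoRNA), methylate and pseudouridylate this precursor, while large assemblies of processing factors cut it and fold it into the 40S and 60S subunits. The work consumes much of the energy of a growing cell, and transcription by Pol I is known to respond to nutrients, growth factors and oxygen. The libraries hold polyadenylated RNA, so the values below are levels of the mRNAs of the factors and not of ribosomal RNA or of ribosomes.

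Total counts were between 20438746 and 21854790 per library, and the mRNAs of the 48 genes took 1.97% to 2.10% of them in the controls and 1.84% to 1.92% after H/R. Control replicate 1 stood apart, with 59 genes at 10 counts or more that had at most 2 counts in each other library. Among them were Fga with 61 counts and Cyp2e1 with 45, and the number of calls is therefore also given without this library. Of the hepatocyte markers, the regulator Hnf4a had 2973 to 3209 counts in the controls and 2035 to 2166 after H/R (log2 fold change -0.41, edgeR adjusted p = 4.15e-10). Alb had 542 counts in control replicate 1, 132 and 209 in the other controls, and 31 to 43 after H/R. Foxa2, another hepatocyte marker, was higher after H/R (log2 fold change 0.20, edgeR adjusted p = 0.000663). All 3 markers of bile duct cells that were found (Krt19, Krt7 and Sox9) were present. Their summed count was 27782 to 31681 in the controls and 49854 to 54203 after H/R, while the sum of the 9 hepatocyte markers was 6691 to 7606 and 4480 to 4820. The leukocyte markers Ptprc, Adgre1 and Clec4f and the endothelial markers Pecam1, Cdh5 and Kdr had 3 counts or fewer in each library, although Cd68 went from 16 to 22 counts to 113 to 137. Summed counts were 21 to 30 in the controls and 116 to 141 after H/R for 5 markers of Kupffer cells or leukocytes. They were 3 to 10 and 3 to 9 for 4 endothelial markers, 8 to 16 and 4 to 16 for 4 stellate cell or fibroblast markers, and 1 to 2 and 0 to 7 for 2 erythroid markers. The part of these markers in the results below was not tested.

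After H/R more of the 48 genes were lower than higher, and the shifts were small. Of the 48, 26 fell (54.2%), 12 rose (25%) and 10 did not pass the test, at an adjusted p under 0.05 in the quasi-likelihood test of edgeR fitted over all genes. Among all 14020 genes tested, 31.8% fell and 31.0% rose, 62.8% in both directions together. None of the 48 passed 2-fold at this threshold in edgeR or in DESeq2, as 8.52% of all genes did in edgeR (4.25% higher and 4.27% lower). At least 1.5-fold was reached by 4 that fell (Dkc1, Polr1b, Nop10 and Ubtf, 8.33%) and by none that rose, against 13.0% and 11.4% of all genes tested. Without adjustment 39 of the 48 had a p under 0.05. At least 62.8% of all genes tested did so too, since that share passed after adjustment. The median log2 fold change was -0.12, against -0.01 over all genes tested. In 37 of the 48 the groups did not overlap (25 lower and 12 higher), as in 65.9% of all genes tested (33.5% lower and 32.5% higher). Since the RNA came from whole cultures, a smaller share of cells with an mRNA and less of it per cell cannot be told apart.

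The split between the directions depended on how the libraries were scaled. Scaling by trimmed means (TMM) gave the 26 and 12 above, with 31.6% of calls higher. Scaling by upper quartiles gave 29 lower and 6 higher (17.1% of calls higher), and library totals gave 31 lower and 6 higher (16.2% of calls higher). Among all genes tested, upper quartiles gave 36.8% lower and 26.3% higher, and library totals gave 39.1% lower and 23.9% higher. The median of all genes moved to a log2 fold change of -0.12 with library totals, and that of the 48 genes to -0.23. The median of the 48 minus that of all genes was -0.11 with TMM, with upper quartiles and with library totals. Without control replicate 1, 25 fell and 9 rose, against 29.4% and 29.0% of all genes tested, and the 4 calls that were lost were those of Bop1, Rrs1, Utp15 and Wdr43.

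**Figure D1:**
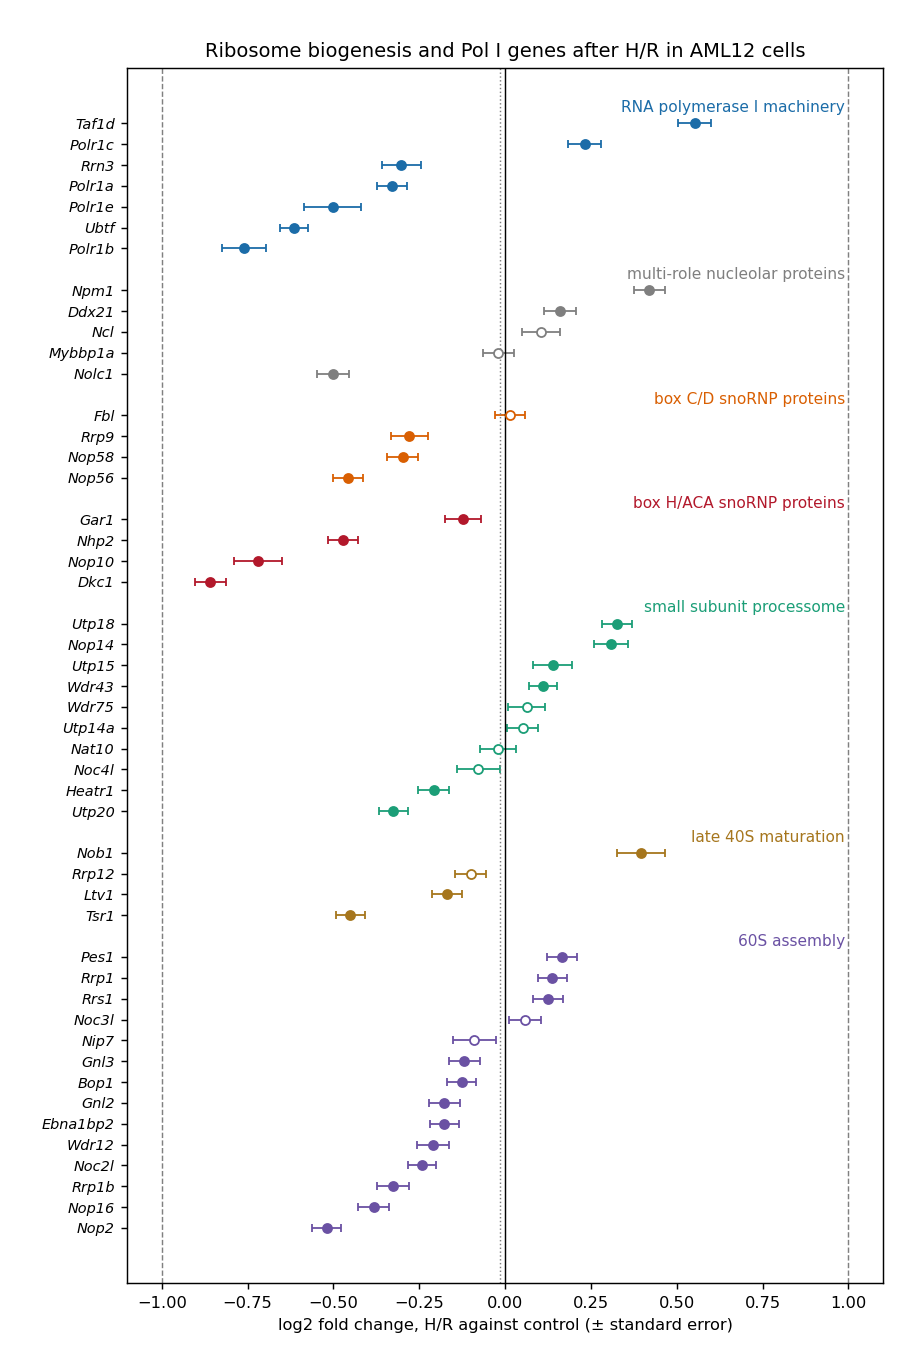
Log2 fold changes between H/R and control libraries (x axis, 3 libraries per group) of the 48 genes (y axis), grouped and coloured by role, with standard errors as bars; filled points passed an adjusted p under 0.05, open points did not, the dotted line is the median of all genes tested and the dashed lines mark 2-fold. Values run from -0.86 (Dkc1) to 0.55 (Taf1d), and all 4 box H/ACA proteins and 5 of 7 Pol I genes lie below 0.

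Differences were seen among genes of 1 machine as well as between machines. The role with the lowest median was that of the box H/ACA proteins (log2 fold change -0.60 over 4 genes), followed by the Pol I machinery (-0.33 over 7), the box C/D proteins (-0.29 over 4), 60S assembly (-0.15 over 14) and late 40S maturation (-0.13 over 4). The small subunit processome (0.06 over 10) and the multi-role nucleolar proteins (0.10 over 5) had medians just above 0. With library totals these 2 medians turned to -0.05 and -0.0007, whereas those of the other roles stayed below 0. The medians and counts by role are descriptions without a test of 1 role against another. By the RPKM values of the authors, which correct for gene length, control levels ran from 5.48 for Polr1e to 832 for Npm1, with a median of 43.6 in the controls and 38.2 after H/R. Replicates were close, since the coefficient of variation of the normalised count within a group was between 0.640% and 9.31% (median 3.29%).

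Of the 7 members of the Pol I machinery, 5 fell and 2 rose. Polr1b, the second-largest subunit of the enzyme (chr2:129100995-129126594 in GRCm38), had 760.3, 746 and 704 normalised counts in the controls and 429.7, 431 and 444 after H/R. A normalised count is the read count divided by the TMM-scaled library size and brought to the average library, and values are given for replicates 1, 2 and 3 in this order. Polr1b was lower by 40.9% (log2 fold change -0.76, SE 0.0638, edgeR adjusted p = 1.53e-12), and the highest H/R library lay far under the lowest control. Polr1a (chr6:71909053-71984935), the largest subunit and part of the active centre, had 6172, 6133 and 5709 normalised counts in the controls and 4880.0, 4953 and 4507 after H/R and fell less (log2 fold change -0.33, SE 0.0438, edgeR adjusted p = 5.18e-08). Polr1e (chr4:45018583-45036565), a subunit that takes part in initiation, was the least abundant of the 48 genes per length and had 443, 472 and 394 normalised counts in the controls and 312, 298 and 314 after H/R (log2 fold change -0.50, SE 0.0819, edgeR adjusted p = 2.23e-06). In all 3 subunits each H/R library was under each control library.

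Polr1c (chr17:46243920-46248054), a subunit that Pol I shares with Pol III, went the other way, with 1737, 1594 and 1707 normalised counts in the controls and 2001, 1895 and 2022 after H/R (log2 fold change 0.23, SE 0.0476, edgeR adjusted p = 7.16e-05). The call of Polr1c was lost in a limma-trend fit on log2(RPKM + 1), with an adjusted p of 0.0548. Ubtf (chr11:102304560-102319742), the upstream binding factor that coats active ribosomal DNA, had 7915, 8079.5 and 7997 normalised counts in the controls and 5189, 5199 and 5271 after H/R. Every H/R library of Ubtf was far under every control, and the gene was lower by 34.7% in the fit (log2 fold change -0.62, SE 0.0406, edgeR adjusted p = 2.98e-15). Taf1d (chr9:15306214-15316991), a subunit of the selectivity factor SL1 at the Pol I promoter, rose more than any other of the 48, with 3323, 3748 and 3148 normalised counts in the controls and 4972, 4944 and 5067 after H/R (log2 fold change 0.55, SE 0.049, edgeR adjusted p = 7.17e-11). Exons of other genes cover 13.6% of the exon length of Taf1d, among them small RNA genes on the same strand.

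Rrn3 (chr16:13780699-13814840), the factor that makes Pol I competent to start and a known end point of nutrient and stress signalling, had 974, 1050.4 and 1079 normalised counts in the controls and 809.9, 808 and 898 after H/R. It fell by 18.9% in the fit (log2 fold change -0.30, SE 0.058, edgeR adjusted p = 2.95e-05), with no overlap between groups. Its promoter is shown because it was the only one of the 42 genes with an available window in which the E-box, the hexamer CACGTG that MYC and related factors bind, was found at 2 places. The 250 bases before the start of Rrn3 in the RefSeq annotation of GRCm38.p6 (chr16:13780449-13780698, plus strand, 5′ to 3′, E-boxes in capitals) read as follows.
Rrn3 promoter: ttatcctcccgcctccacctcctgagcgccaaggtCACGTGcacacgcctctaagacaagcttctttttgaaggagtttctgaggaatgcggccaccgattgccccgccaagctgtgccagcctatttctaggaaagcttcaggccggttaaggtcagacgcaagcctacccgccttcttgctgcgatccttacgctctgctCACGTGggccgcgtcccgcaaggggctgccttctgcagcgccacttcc

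**Figure D2:**
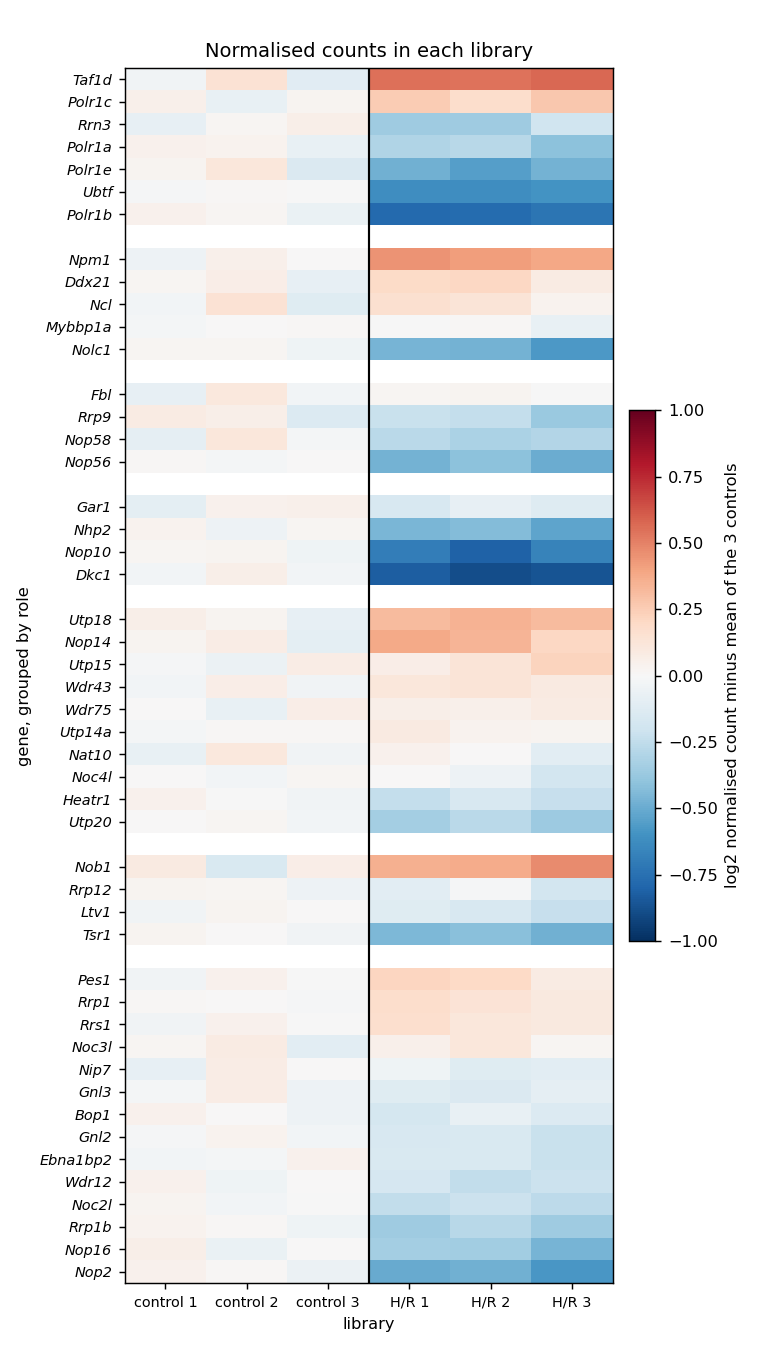
Log2 normalised count of each of the 48 genes (rows, grouped by role) in each of the 6 libraries (columns), minus the mean of the 3 controls; red is higher and blue is lower, on a colour scale from -1 to 1. The 3 H/R columns resemble each other, with Dkc1, Polr1b and Nop10 the darkest blue rows and Taf1d and Npm1 among the darkest red ones.

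Further parts of the Pol I apparatus, taken from a list that leaves out the 7 genes above, differed from each other in direction. Of 10 further Pol I genes, 6 rose, 1 fell and 3 did not pass the test (median log2 fold change 0.16), where 31.0% of all genes tested rose and 31.8% fell. With library totals 2 of the 10 rose and 2 fell (median 0.05). The gene that fell was Cd3eap, a Pol I subunit that pairs with the product of Polr1e, from 2585 ± 31.4 to 2043 ± 70.6 normalised counts (SD, n = 3; log2 fold change -0.34, SE 0.0443, edgeR adjusted p = 3.42e-08). Znrd1, a small subunit, rose from 96.8 ± 15.9 to 131 ± 3.16 (log2 fold change 0.44, SE 0.136, edgeR adjusted p = 0.00545), and Taf1a, another subunit of SL1, rose as well (log2 fold change 0.33, SE 0.0776, edgeR adjusted p = 0.000534). Of 5 subunits that the RNA polymerases share, 3 fell and 1 rose, and Polr2l had 505, 493 and 485 in the controls and 239, 245 and 276 after H/R (log2 fold change -0.96, SE 0.0807, edgeR adjusted p = 1.52e-12).

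All 4 core proteins of the box H/ACA particles, which convert uridine to pseudouridine in ribosomal RNA and also form part of telomerase, were lower after H/R. Dkc1 (chrX:75095854-75109777), dyskerin, the pseudouridine synthase itself, had 2705, 2866 and 2710.4 normalised counts in the controls and 1555, 1495 and 1518 after H/R. This fall of 44.8% was the largest among the 48 genes (log2 fold change -0.86, SE 0.0455, edgeR adjusted p = 7.81e-18). Nop10, the smallest protein of the particle, had 612, 617 and 586 normalised counts in the controls and 375, 345 and 381 after H/R (log2 fold change -0.72, SE 0.0704, edgeR adjusted p = 6.32e-11). In both genes the groups were far apart relative to the spread of the replicates.

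Nhp2, which binds the RNA of the particle, had 4292, 4041 and 4238 normalised counts in the controls and 3049, 3109 and 2901 after H/R (log2 fold change -0.47, SE 0.0432, edgeR adjusted p = 1.26e-11). Gar1, which joins the particle late in its assembly, had 1188, 1307 and 1316 normalised counts in the controls and 1138, 1199 and 1162 after H/R. In contrast to the other 3, the groups of Gar1 overlapped (log2 fold change -0.12, SE 0.0526, edgeR adjusted p = 0.0414). This call was lost with DESeq2, with no filter, and when control replicate 2, control replicate 3, H/R replicate 1 or H/R replicate 3 was left out. Naf1, an assembly factor that holds the place of Gar1 in the immature particle and is not among the 48 genes, rose from 391 ± 33.4 to 608 ± 44.4 normalised counts (SD, n = 3; log2 fold change 0.63, SE 0.0746, edgeR adjusted p = 4.16e-09).

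Of the 4 box C/D proteins 3 fell, and Fbl did not pass the test. Fbl, fibrillarin, the methyltransferase that modifies the ribose of ribosomal RNA, had 4292, 4874 and 4457 normalised counts in the controls and 4598, 4629 and 4527 after H/R, and the groups overlapped (log2 fold change 0.01, SE 0.0443, edgeR adjusted p = 0.8). With upper quartile scaling or library totals the sign of its log2 fold change turned (-0.06 and -0.09). Nop56, a scaffold protein, had 11752, 11544 and 11731 normalised counts in the controls and 8435, 8802 and 8282 after H/R (log2 fold change -0.46, SE 0.0429, edgeR adjusted p = 2.47e-11), and exons of other genes, some of them snoRNA genes, cover 8.12% of its exon length. Nop58, its partner, had 5443, 6289 and 5713 normalised counts in the controls and 4802, 4656 and 4728 after H/R (log2 fold change -0.30, SE 0.0452, edgeR adjusted p = 8.06e-07). Each H/R library was under each control for Nop56, Nop58 and Rrp9, the protein specific to the U3 particle (log2 fold change -0.28, SE 0.0536, edgeR adjusted p = 0.000102).

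The 5 multi-role nucleolar proteins, of which 2 rose, 1 fell and 2 did not pass the test, included the 3 most abundant of the 48 mRNAs per length (Npm1, Ncl and Nolc1). Npm1 (chr11:33152287-33163206), nucleophosmin, a chaperone of the outer nucleolus, had 43587, 46864 and 45308 normalised counts in the controls and 61813, 60572 and 59278 after H/R. It rose by 33.8% (log2 fold change 0.42, SE 0.0455, edgeR adjusted p = 6.89e-10), and every H/R library was above every control. Ncl, nucleolin, an RNA-binding protein of the nucleolus, had 125362, 141052 and 117661 normalised counts in the controls and 142541, 139435 and 130779.8 after H/R. The groups of Ncl overlapped through control replicate 2 (log2 fold change 0.10, SE 0.0548, edgeR adjusted p = 0.103), without which it passed the test (log2 fold change 0.18, edgeR adjusted p = 0.00131), as it also did without H/R replicate 3 and with the replicate block (log2 fold change 0.11, edgeR adjusted p = 0.0256). On the deposited scale the mean RPKM, which is scaled by library totals, was 615 ± 52.9 in the controls and 615 ± 21.7 after H/R (SD, n = 3). Together these 2 genes held 41.2% to 43.7% of the counts of the 48 genes in the controls and 47.5% to 48.1% after H/R.

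Nolc1, a chaperone that brings snoRNA particles to the nucleolus, fell by 29.4% (log2 fold change -0.50, SE 0.0461, edgeR adjusted p = 1.43e-11), from 30961 ± 745 to 21862 ± 925 normalised counts (SD, n = 3). Ddx21, an RNA helicase that acts on Pol I transcription and on the precursor, rose by 11.7% (log2 fold change 0.16, SE 0.048, edgeR adjusted p = 0.00425). This call was absent under upper quartile scaling, with library totals, in the limma-trend fit and without H/R replicate 2. Mybbp1a, a nucleolar protein that binds transcription factors, had a log2 fold change of -0.02 (SE 0.0449) and did not pass the test, but was called lower with library totals (log2 fold change -0.12) and in the limma-trend fit.

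The 10 genes of the small subunit processome, the early assembly on the 5′ part of the precursor, went both ways, with 4 higher, 2 lower and 4 that did not pass the test. Utp18, of the UTP-B module, had 3197, 3126 and 2891 normalised counts in the controls and 3825, 3906 and 3824 after H/R (log2 fold change 0.33, SE 0.0438, edgeR adjusted p = 6.20e-08). Nop14, which binds its partner Noc4l, had 9784, 10091 and 8951 normalised counts in the controls and 12461, 12151 and 11079 after H/R (log2 fold change 0.31, SE 0.0495, edgeR adjusted p = 2.86e-06), and an antisense gene covers 5.27% of its exon length. Both stood clear of the controls in each library, whereas Noc4l had overlapping groups (log2 fold change -0.08, SE 0.063, edgeR adjusted p = 0.287). Noc4l was called lower under upper quartile scaling, with library totals and in the limma-trend fit.

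Utp15 (log2 fold change 0.14) and Wdr43 (log2 fold change 0.11), both of the UTP-A module that is tied to transcription of the precursor, rose by 10.1% and 7.92%. The call of Utp15 was lost in 9 of 15 alternative settings and that of Wdr43 in 7, among them upper quartile scaling, library totals and the fit without control replicate 1. Heatr1, also of UTP-A, fell (log2 fold change -0.21, SE 0.0456, edgeR adjusted p = 0.000172), so that members of the same module differed in direction. Utp20, a large scaffold protein, fell more (log2 fold change -0.33, SE 0.0416, edgeR adjusted p = 2.41e-08). Wdr75 (log2 fold change 0.06) of UTP-A, Utp14a (log2 fold change 0.05), which recruits a helicase, and Nat10 (log2 fold change -0.02), which acetylates cytidines, did not pass the test. For Utp14a each H/R library was nonetheless above each control, and an antisense gene covers 11.5% of its exon length. The signs of Wdr75 and Utp14a turned under upper quartile scaling and with library totals, as did that of Nat10 without control replicate 2 or without H/R replicate 3. Nat10 was called lower with library totals (log2 fold change -0.13).

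In late 40S maturation, 1 gene rose and 2 fell. Nob1, the endonuclease that makes the final cut of the small ribosomal RNA, was among the least abundant of the 48, with 499, 421 and 489.5 normalised counts in the controls and 599.9, 605 and 652 after H/R. All H/R libraries of Nob1 were above the controls, the nearest pair being 499 and 599.9 (log2 fold change 0.40, SE 0.0703, edgeR adjusted p = 8.50e-06). Tsr1, a factor that keeps the immature subunit from binding translation factors, fell (log2 fold change -0.45, SE 0.0424, edgeR adjusted p = 2.60e-11), although an antisense neighbour, Srr, covers 32.3% of its exon length. Ltv1, an assembly factor of the head of the subunit, fell by 11% (log2 fold change -0.17, SE 0.0438, edgeR adjusted p = 0.00115), and Rrp12, which takes part in export, missed the threshold (log2 fold change -0.10, SE 0.0453, edgeR adjusted p = 0.0538) but was called lower in 7 alternatives. These were upper quartile scaling, library totals, the limma-trend fit, the minimum of 10 counts, the replicate block and the fits without control replicate 3 or H/R replicate 2.

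Among the 14 genes of 60S assembly, 9 fell, 3 rose and 2 did not pass the test. Nop2 (chr6:125131909-125144753), a methyltransferase of the large ribosomal RNA and a classical marker of proliferating cells, had 8578, 8383 and 7986 normalised counts in the controls and 5873, 5964 and 5566 after H/R. It fell by 30.2% (log2 fold change -0.52, SE 0.0432, edgeR adjusted p = 1.22e-12), the largest fall in this group. Nop16 (log2 fold change -0.38, SE 0.0459, edgeR adjusted p = 6.09e-09) and Rrp1b (log2 fold change -0.33, SE 0.0464, edgeR adjusted p = 1.83e-07), both of the early large subunit, followed. These 3 genes had no overlap between groups.

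Pes1, Bop1 and Wdr12 form 1 complex that is needed for processing of the large ribosomal RNA, yet their mRNAs differed in direction. Pes1 had 9237, 9708 and 9407 normalised counts in the controls and 10937, 10873 and 10004 after H/R (log2 fold change 0.17, SE 0.0447, edgeR adjusted p = 0.00163). Bop1 had 4888, 4763 and 4580.1 normalised counts in the controls and 4206, 4512 and 4319 after H/R (log2 fold change -0.13, SE 0.0423, edgeR adjusted p = 0.00976). Wdr12 had 2086, 1962 and 2025 normalised counts in the controls and 1798, 1706 and 1745 after H/R (log2 fold change -0.21, SE 0.046, edgeR adjusted p = 0.000162). The groups of each of the 3 did not overlap, with Pes1 higher and Bop1 and Wdr12 lower after H/R. The call of Pes1 was lost under upper quartile scaling, with library totals and in the limma-trend fit, and that of Bop1 without control replicate 1 or without H/R replicate 1.

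The remaining genes of 60S assembly moved little. Noc2l, a partner of Noc3l, fell (log2 fold change -0.24, SE 0.0407, edgeR adjusted p = 3.85e-06), with 20.9% of its exon length covered by its antisense neighbour Samd11, and Noc3l did not pass the test (log2 fold change 0.06), with a sign that turned under upper quartile scaling and with library totals. Ebna1bp2 (log2 fold change -0.18), a scaffold of the early particle, and the GTPases Gnl2 (log2 fold change -0.18) and Gnl3, nucleostemin (log2 fold change -0.12), fell by 7.92% to 11.6%. The call of Gnl3 was lost in DESeq2 and without control replicate 2, H/R replicate 1 or H/R replicate 2. Rrp1 (log2 fold change 0.14), the relative of Rrp1b, and Rrs1 (log2 fold change 0.13), which helps to load the small RNA of the large subunit, rose by 10.0% and 9.07%. Both calls were lost under upper quartile scaling, with library totals, in the limma-trend fit and without H/R replicate 1, and that of Rrs1 also without control replicate 1. Nip7 (log2 fold change -0.09), which acts in processing of the large ribosomal RNA, did not pass the test but was called lower under upper quartile scaling, with library totals and in the limma-trend fit.

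Ratios between partners, which do not depend on how the libraries were scaled, set these differences within complexes side by side. The 11 pairs were chosen after the values had been seen and are described without a test. For each pair the RPKM of 1 gene was divided by that of the other in each library, and 9 of the 11 pairs had no overlap between groups. Several pairs share a gene, and the matching share among other pairs of genes was not computed. Of all single genes tested, 65.9% had no overlap. Polr1c to Polr1b had the widest shift, with a mean ratio of 5.81 ± 0.367 in the controls and 11.6 ± 0.340 after H/R (SD, n = 3). Polr1a to Polr1b went from 3.98 ± 0.0305 to 5.38 ± 0.358. Relative to Polr1b, both other subunits thus stood higher after H/R.

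Gar1 to Dkc1 went from 1.11 ± 0.0564 to 1.84 ± 0.0846, and Gar1 to Nop10 from 1.36 ± 0.0990 to 2.06 ± 0.161. Fbl was 0.379 ± 0.0288 of the RPKM of Nop56 in the controls and 0.525 ± 0.0112 after H/R. Pes1 to Wdr12 went from 18.5 ± 1.03 to 24.0 ± 1.27 and Pes1 to Bop1 from 1.63 ± 0.0741 to 2.00 ± 0.119. Bop1 to Wdr12 (11.3 ± 0.400 and 12 ± 0.738) and Nop58 to Nop56 (0.190 ± 0.0160 and 0.212 ± 0.00905) were the 2 pairs whose groups overlapped.

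**Figure D3:**
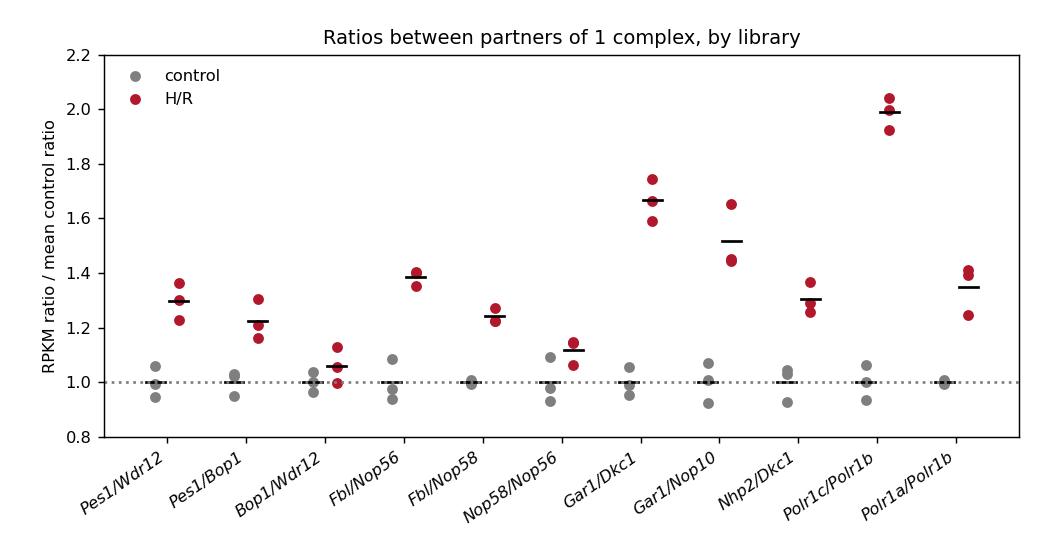
RPKM ratio of 2 partners of 1 complex in each library divided by the mean ratio of the 3 controls (y axis, starting at 0.8) for 11 pairs (x axis); grey points are control libraries, red points H/R libraries and black bars group means. Control and H/R points are apart in 9 pairs, most of all in Polr1c to Polr1b, and overlap for Bop1 to Wdr12 and for Nop58 to Nop56. The pairs were chosen after the values had been seen.

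Promoters of the 48 genes were searched because the E-box and the ETS motif are found in many genes of ribosome production. Windows from 250 bases before to 50 bases after an annotated start were given by RefSeq (GRCm38.p6) for 42 of the 48 genes and not for Npm1, Fbl, Bop1, Rrp12, Rrs1 and Gnl2. Both strands were searched, and a gene was counted where any of its windows held the letters. The E-box CACGTG was found in 9 of the 42 genes (21.4%), against 11.8% of the 9201 tested genes with a window. Of these 9 genes 5 fell (Nop2, Ltv1, Utp20, Tsr1 and Rrn3), 3 rose (Pes1, Utp18 and Wdr43) and Mybbp1a did not pass the test. Windows of 30 bases around the E-box are shown for 2 genes that fell and 2 that rose, in the direction of the gene and with the motif in capitals.
Nop2 (E-box; chr6:125131811-125131840, plus strand): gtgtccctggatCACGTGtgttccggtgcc
Tsr1 (E-box; chr11:74898092-74898121, plus strand): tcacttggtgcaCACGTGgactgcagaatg
Pes1 (E-box; chr11:3963965-3963994, plus strand): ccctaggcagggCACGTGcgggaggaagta
Utp18 (E-box; chr11:93885769-93885798, minus strand): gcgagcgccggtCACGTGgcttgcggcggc

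The ETS motif CCGGAAGT was found in 11 of the 42 genes (26.2%), against 9.72% of the 9201 tested genes. Of the 11, 9 fell (Gar1, Polr1e, Ebna1bp2, Noc2l, Ltv1, Nhp2, Tsr1, Heatr1 and Rrn3), Polr1c rose and Nip7 did not pass the test. The call of Gar1 was lost in 6 of 15 alternative settings and that of Polr1c in 1. The windows of both Pol I subunits that hold the motif are shown because the 2 differed in direction, with those of a box H/ACA protein and a processome protein that fell. The motif is in capitals on whichever strand it was found.
Polr1e (ETS; chr4:45018622-45018651, plus strand): cctagaatgtcACTTCCGGtttttgagtcc
Polr1c (ETS; chr17:46248069-46248098, minus strand): ccacttgacgtCCGGAAGTgaaggacgtgg
Nhp2 (ETS; chr11:51619739-51619768, plus strand): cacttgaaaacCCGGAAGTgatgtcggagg
Heatr1 (ETS; chr13:12395348-12395377, plus strand): gtagtgagaagCCGGAAGTtcctatgaggc
The pentamer ACGTG, the core of the hypoxia response element and contained in every E-box, was found in 38.1% of the 42 genes and 29.6% of tested genes. The core CCAAT bound by NF-Y was found in 35.7% and 43.4%, and the GC box GGGCGG in 76.2% and 69.0%. Of the 16 genes with ACGTG 8 fell and 7 rose, of the 15 with CCAAT 10 fell and 2 rose, and of the 32 with the GC box 18 fell and 7 rose. Among all 48 genes, with or without a window, 26 fell and 12 rose. How many of all tested genes with each motif fell or rose was not computed, for the E-box and the ETS motif as well. All motifs here are matches of letters, described without a test and without data on binding.

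Other genes of ribosome production were looked at in lists that leave out the 48. Of 43 further small subunit genes 12 rose and 19 fell (median log2 fold change -0.09), and of 48 further large subunit genes 15 rose and 19 fell (-0.04). Together with the 10 further Pol I genes, 33 of 101 rose (32.7%), 39 fell (38.6%) and none passed 2-fold in edgeR, with a median of -0.03. Of all genes tested, 31.0% rose, 31.8% fell and 8.52% passed 2-fold, with a median of -0.01. Pwp2, a UTP-B protein like Utp18, fell from 1052 ± 33.5 to 637 ± 12 normalised counts (SD, n = 3; log2 fold change -0.72, SE 0.0564, edgeR adjusted p = 2.40e-13). Riok1, a kinase of late 40S maturation, rose from 1002 ± 48.9 to 1649.5 ± 55.7 (log2 fold change 0.72, SE 0.0514, edgeR adjusted p = 2.45e-14). In the large subunit Urb2 fell (log2 fold change -0.70, SE 0.055, edgeR adjusted p = 2.54e-13) and Zfp622, a factor that acts on the 60S particle in the cytoplasm, rose (log2 fold change 0.69, SE 0.0425, edgeR adjusted p = 5.76e-16). Both directions were thus present among these genes, in shares near those of all genes tested.

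The mRNAs of the proteins of the ribosome itself were nearly all higher. Of 40 cytosolic ribosomal protein genes 39 rose and none fell (median log2 fold change 0.32), at an adjusted p under 0.05 in edgeR. The shares of all genes tested, for this and the next lists, were 31.0% higher and 31.8% lower. Rpl3 had 24056, 22218 and 24031 in the controls and 38690.2, 37446 and 36609 after H/R (log2 fold change 0.68, SE 0.0466, edgeR adjusted p = 8.00e-15). With library totals 35 of the 40 rose and none fell. All 14 listed subunits and partners of the RNA exosome, which trims ribosomal RNA precursors, were tested, of which 11 fell and 2 rose (-0.24). Of the 9 snoRNA host genes 6 rose and 1 fell (0.33), with Gas5 at 3463, 4002 and 3682 in the controls and 6874, 6387 and 6731 after H/R (log2 fold change 0.84, SE 0.0466, edgeR adjusted p = 2.61e-16). Other genes cover 17.8% of the exon length of Gas5.

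Subunits of the other nuclear polymerases were more often lower than higher, whereas of all genes tested 31.8% fell and 31.0% rose. Of 8 Pol II subunits 6 fell and 2 rose (median log2 fold change -0.30). With library totals 6 of the 8 fell and none rose. Polr2g was lower (log2 fold change -0.51, SE 0.0592, edgeR adjusted p = 3.41e-09). The largest subunit, Polr2a, fell less (log2 fold change -0.10, SE 0.0435, edgeR adjusted p = 0.0398). Of 21 Pol III subunits and factors 10 fell, 3 rose and 8 did not pass the test (-0.13). Polr3k was lowest (log2 fold change -0.74, SE 0.101, edgeR adjusted p = 7.94e-08), while Polr3a did not pass the test (log2 fold change -0.13, SE 0.072, edgeR adjusted p = 0.128). The counts for these lists carry no test against the 48 genes.

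Some regulators that are known to act on ribosome production had larger fold changes than any of the 48 genes. Myc, a transcription factor that drives many genes of this class, had 547, 465 and 519 in the controls and 1735, 1999.5 and 1829.8 after H/R (log2 fold change 1.86, SE 0.062, edgeR adjusted p = 1.04e-21). Mxd1, which opposes Myc on E-boxes, had 356, 409 and 327 in the controls and 2177, 2429.8 and 2298 after H/R (log2 fold change 2.66, SE 0.0645, edgeR adjusted p = 1.96e-24), and Mxi1, of the same family, rose too (log2 fold change 1.46, SE 0.0513, edgeR adjusted p = 4.71e-22). Of 11 genes of this network 7 rose and 2 fell, and 4 passed 2-fold in either direction. The lowest log2 fold change in this list was that of Mycn (-1.02). Of all genes tested, 31.0% rose, 31.8% fell and 8.52% passed 2-fold. Of 6 genes that respond to or sense nucleolar stress 4 rose and 1 fell, which was Trp53 (log2 fold change -0.28). Rpl5 and Rpl11 are among these 6 and were also counted with the ribosomal proteins above. Mdm2, the ligase that ribosomal proteins can inhibit, had 1923, 2004 and 1789.7 in the controls and 5447, 5928 and 5516 after H/R (log2 fold change 1.56, SE 0.047, edgeR adjusted p = 9.32e-25), and Cdkn1a, an inhibitor of the cell cycle, rose as well (log2 fold change 0.98, SE 0.0593, edgeR adjusted p = 1.36e-15). No relation between these genes and the 48 was tested.

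**Figure D4:**
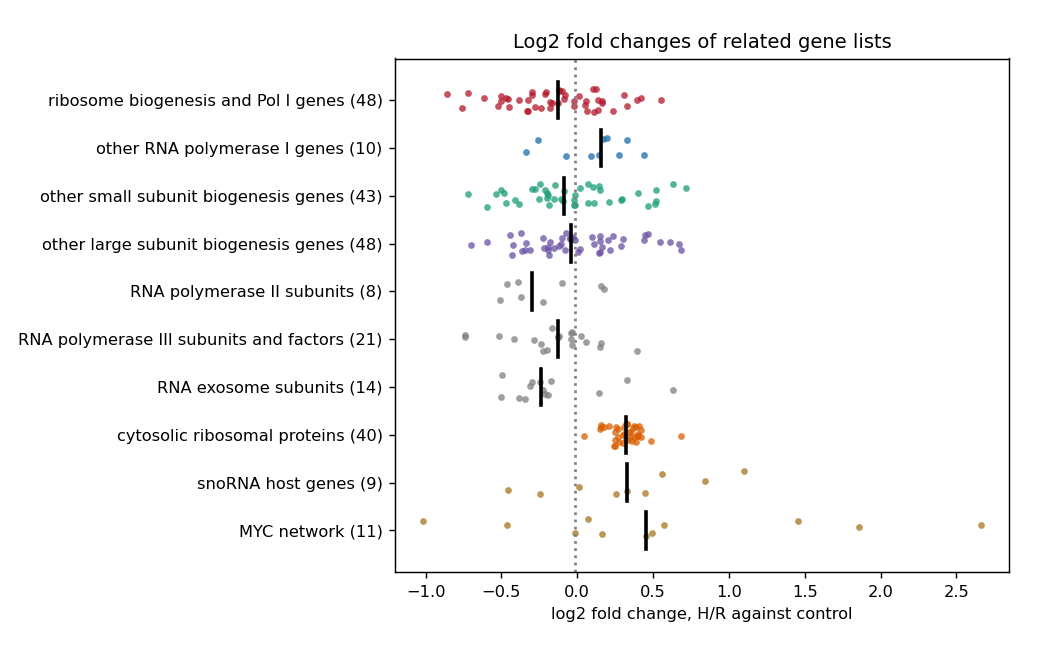
Log2 fold change between H/R and control libraries (x axis) of each tested gene in the 48 ribosome biogenesis and Pol I genes and in 9 related lists (y axis, with the number of genes in brackets); points are genes, black bars list medians and the dotted line is the median of all genes tested. The 48 genes lie between -0.86 and 0.55 around a median of -0.12, the cytosolic ribosomal proteins lie above 0, and the MYC network reaches 2.66.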

How the data were processed

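RNA was sequenced from 3 control and 3 H/R libraries of AML12 cells. Per the labels and the paper, reads were trimmed with Trimmomatic 0.36, mapped to GRCm38 (also given as mm10) with a program printed as STRA and counted with featureCounts of Subread 1.5.1, and edgeR 3.12.1 is named without a role. The strand setting and the annotation release are not given in the sources used here. Each deposited table gives raw whole-number counts, and the deposited RPKM equals the count divided by length and library total (largest relative error 1.13e-06). Exons of 7571 of the 25330 genes overlap those of another gene, and 24 symbols had turned into dates.

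The count tables were fitted with edgeR 4.0.16 in R 4.3.3 (filterByExpr, TMM, robust quasi-likelihood test, Benjamini-Hochberg adjustment over 14020 genes). Beyond counting noise, the coefficient of variation between replicates was 0.0502, and no 2 replicates were alike within sampling noise (chi-square over degrees of freedom from 2.12 to 15.0). A called gene had an adjusted p under 0.05. The alternatives were DESeq2 1.42.0, upper quartile scaling, library totals, no filter, a minimum of 10 counts in each library, a replicate block, non-robust dispersions, limma-trend (limma 3.58.1) on log2(RPKM + 1), leaving out genes that share exons and leaving out each library.

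The 48 genes and the other lists were chosen with earlier results of these data known. Values in each library are given for the Pol I machinery, the core snoRNA particle proteins, Ncl, Npm1, the Pes1, Bop1 and Wdr12 complex and the 5 genes with the highest and the 5 with the lowest log2 fold change. Of the other lists at most the 3 called genes with the largest fold changes are named, plus Myc, Mycn, Polr2a, Polr3a, Trp53, Rpl5 and Rpl11. Gene coordinates, counted from 1, were taken from the deposited tables.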

Additional observations from a re-analysis of the deposited data

How the results depend on the processing

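Of the 48 genes, 28 had the same call and direction in every alternative in which they were tested, 23 of them lower and 5 higher (Npm1, Nop14, Utp18, Nob1 and Taf1d). The matching count over all genes tested was not made. The number of the 48 genes that rose was 12, but 6 with upper quartile scaling, 6 with library totals and 5 in the limma-trend fit. In the same order, the share of all genes that rose went from 31.0% to 26.3%, 23.9% and 22.6%. The share of all genes that fell went from 31.8% to 36.8%, 39.1% and 37.8%. The median log2 fold change of -0.12 became -0.20 with upper quartile scaling, -0.23 with library totals, -0.22 in the limma-trend fit and -0.0906 without genes that share exons, and lay between -0.15 and -0.11 when 1 library was left out. Without genes that share exons 30 of the 48 remained for testing, of which 14 fell and 9 rose (46.7% and 30%), against 31.6% and 32.1% of the 8425 genes tested, and of 65 other ribosome biogenesis genes 23 fell and 23 rose. Of these other genes 20 rose with library totals and 17 in the limma-trend fit, against 33. Signs turned for Fbl (-0.0566, -0.0911 and -0.0872 with upper quartile scaling, library totals and limma-trend), Utp14a (-0.0191, -0.0539 and -0.0510), Wdr75 (-0.00699, -0.0417 and -0.0365), Noc3l (-0.0122, -0.0463 and -0.0439) and, with library totals, Ncl (-0.000701). When 1 library was left out the log2 fold change of Fbl lay between -0.0252 and 0.0666, of Nat10 between -0.0563 and 0.0341 and of Mybbp1a between -0.0390 and 0.0102. None of these genes was called in edgeR with TMM scaling, no block and all libraries, but Mybbp1a and Nat10 were called lower with library totals, Mybbp1a also with limma-trend, and Ncl was called higher with the replicate block. Measured from the median of all genes tested, all 48 genes kept their sign with upper quartile scaling and library totals, and 47 did with limma-trend. Where signs or calls changed, the cause was not tested, apart from the smaller number of genes when those that share exons are left out.

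Replicate numbers did not pair the libraries, since the deviations of same-numbered libraries had correlations of -0.0269, 0.00476 and -0.0141. With the replicate block 27 of the 48 fell and 13 rose, which adds Ncl (higher) and Rrp12 (lower) to the 38 calls made without it. The least abundant of the 48 genes had 276 counts or more in each library. The effect of depth was not tested.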
